A study of Rattus norvegicus with 2 samples.

Results

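*Tnnc2*, *Cox6a2*, *Trdn* and *Rrad* are 4 genes best known from striated muscle, and they are described here in hypothalamic cells of female Sprague Dawley rats. They are 4 of the 32883 genes listed in both libraries, and they were selected on their measured values, since all of them had far more transcripts in SC300 than in Control tanycytes. Both groups were females of 4 weeks of age, and tissue with the AVPV and ARC areas was taken on PND 29, dissociated with collagenase and counted by droplet-based 3′ RNA sequencing. In the SC300 group, a silicone implant that released estradiol benzoate (EB, 300 µg) was placed on PND 0.5 and left in. The Control library carries the label intact, whereas the methods describe a Control capsule filled with sesame oil. Tissue of 3 rats was pooled into 1 library per group, so that neither library holds a measure of the spread between rats. No test between the groups was therefore made, and every interval below is an exact 95% interval that covers counting error only. With 1 library per group, the EB capsule, the pool of rats and the library cannot be told apart.

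Striated muscle contracts when calcium leaves the sarcoplasmic reticulum and binds to troponin C on the thin filament. *Tnnc2* encodes the troponin C of fast skeletal muscle, and *Trdn* encodes triadin, a membrane protein that links the calcium-binding protein calsequestrin to the ryanodine receptor, the release channel. *Rrad* encodes a small GTPase of the RGK family, which binds the β subunits of voltage-gated calcium channels and lowers their current. *Cox6a2* encodes the heart and skeletal muscle form of subunit 6A of cytochrome c oxidase, the last complex of the respiratory chain, and *Cox6a1* encodes the form used in most other tissues. Tanycytes are glial cells that line the floor of the third ventricle, reach with a long process into the ARC and the median eminence, and handle hormones and nutrients between cerebrospinal fluid, blood and neurons.

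Promoter sequences are shown because the 4 genes were high in the same library and, in part, in the same cells. RefSeq (build GRCr8) gave a promoter for 3 of the 4 genes, and *Rrad* had no entry. The 250 bases before the annotated start are printed 5′ to 3′ on the strand of the gene. Capitals mark E-boxes (CANNTG), the motif of basic helix-loop-helix factors such as the myogenic ones, and, in *Cox6a2*, the longer run that matches the site of MEF2 factors.
Tnnc2 (chr3:173935340-173935589, minus strand): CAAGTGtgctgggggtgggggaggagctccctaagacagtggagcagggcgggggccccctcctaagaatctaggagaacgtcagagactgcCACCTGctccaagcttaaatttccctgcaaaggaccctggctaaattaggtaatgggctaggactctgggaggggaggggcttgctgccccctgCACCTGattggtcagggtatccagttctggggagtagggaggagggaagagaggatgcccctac
Cox6a2 (chr1:192219717-192219966, minus strand): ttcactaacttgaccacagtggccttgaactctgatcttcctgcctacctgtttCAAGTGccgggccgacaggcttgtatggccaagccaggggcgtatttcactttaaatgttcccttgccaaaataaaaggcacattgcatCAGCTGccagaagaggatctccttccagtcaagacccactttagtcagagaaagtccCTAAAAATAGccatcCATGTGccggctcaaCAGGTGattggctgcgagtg
Trdn (chr1:26229600-26229849, minus strand): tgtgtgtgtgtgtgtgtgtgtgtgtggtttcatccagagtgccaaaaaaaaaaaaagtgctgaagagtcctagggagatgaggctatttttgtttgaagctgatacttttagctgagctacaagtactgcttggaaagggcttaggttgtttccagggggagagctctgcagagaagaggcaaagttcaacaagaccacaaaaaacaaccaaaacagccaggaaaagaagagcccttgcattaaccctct

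*Tnnc2* held 3 E-boxes, which began 250, 158 and 64 bases before the start, and *Cox6a2* held 4, which began 196, 107, 35 and 20 bases before it. Of 33469 promoters of the same length, 65.5% held an E-box, so that its presence in a promoter was common. The MEF2 match of *Cox6a2* began 50 bases before the start, and 2.96% of the promoters held such a match. The full estrogen response element (GGTCA, any 3 bases, then TGACC) was found in 0.0239% of the promoters and in none of the 3. GGTCA alone was found in 35.4% and occurred once in *Tnnc2* and once in *Cox6a2*. The CArG box of serum response factor (1.50% of promoters) and TATAAA (12.9%) were found in none of the 3. All motifs were searched on both strands, and GGTCA also counts inside a full element. *Trdn* matched none of these motifs in its 250 bases. These are matches of letters only, and the files hold no measure of factor binding.

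Of the barcodes with at least 200 detected genes, 4296 in Control and 4379 in SC300, 321 (7.47%) and 194 (4.43%) were tanycytes. A cell was taken as a tanycyte when at least 3 of *Crym*, *Lhx2*, *Stra6*, *Calml4* and *Ppp1r1b* were detected and fewer than 2 UMIs of the neuronal gene *Snap25* were present. UMIs, or unique molecular identifiers, count captured transcripts, and CPM scales the UMIs of a gene by all UMIs of the same cells to a common total. Tanycytes had a median of 10861 UMIs in Control and 12098.5 in SC300, and 5038779 and 3601025 UMIs in all. Of the gate markers, *Stra6* and *Ppp1r1b* were lower in SC300 than in Control tanycytes, with log2 ratios of −0.96 and −0.88. *Crym* was higher (0.64), and *Lhx2* (−0.06) and *Calml4* (0.07) differed little. *Stra6* was detected in 72.0% of Control and 51.5% of SC300 tanycytes. Whether the gate took the same mix of cells in both libraries was not tested. Markers that the gate did not use bore out the name in part. *Sox2* was detected in 97.2% and 96.9% of tanycytes and *Vim* in 97.8% and 97.9%. *Rax*, a tanycyte transcription factor, was detected in only 5.61% and 6.19% of tanycytes but in 0.0503% and 0.119% of the other cells. *Gpr50* had 3 and 1 UMIs. The gate overlapped with others, because 264 of the 321 and 168 of the 194 tanycytes also passed the gate of another type, and the ependymal gene *Tmem212* was detected in 60.4% of Control tanycytes. Both libraries shared 9 barcode sequences, and 0 of them were tanycytes. Scrublet called 8 Control and 6 SC300 tanycytes as doublets, which were kept.

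In tanycytes, all 4 genes were nearly absent from Control and present in 39 to 59 of the 194 SC300 cells.
*Tnnc2* (ENSRNOG00000015155) had 5 UMIs in 5 Control cells and 281 UMIs in 42 SC300 cells. Its level was 0.992 CPM (0.322 to 2.32) in Control and 78.0 CPM (69.2 to 87.7) in SC300, a log2 ratio of 6.30 (5.06 to 7.93) or 78.6-fold. No Control cell held more than 1 *Tnnc2* UMI, and the highest SC300 cell held 44.
*Trdn* (ENSRNOG00000012609) had 3 UMIs in 3 Control cells and 149 UMIs in 59 SC300 cells. Its level was 0.595 CPM (0.123 to 1.74) and 41.4 CPM (35.0 to 48.6), a log2 ratio of 6.12 (4.54 to 8.41) or 69.5-fold.
*Rrad* (ENSRNOG00000011901) had 6 UMIs in 6 Control cells and 89 UMIs in 39 SC300 cells. Its level was 1.19 CPM (0.437 to 2.59) and 24.7 CPM (19.8 to 30.4), a log2 ratio of 4.38 (3.20 to 5.86) or 20.8-fold.
*Cox6a2* (ENSRNOG00000019851) was the only one of the 4 with more than 1 UMI in any Control tanycyte, with 36 UMIs in 9 Control cells and 236 UMIs in 59 SC300 cells. Its level was 7.14 CPM (5.00 to 9.89) and 65.5 CPM (57.4 to 74.5), a log2 ratio of 3.20 (2.69 to 3.75) or 9.17-fold.

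These ratios chose the genes and are given as a description. Among 9216 genes with at least 50 UMIs in tanycytes, both libraries summed, 1.37% were at least 2-fold higher and 1.87% at least 2-fold lower in SC300, and *Tnnc2*, *Trdn*, *Rrad* and *Cox6a2* ranked 3, 4, 9 and 17 by ratio. The Control value of *Cox6a2* rested on few cells, since 3 of them held 75.0% of its 36 UMIs. Without the 3 cells with the most *Cox6a2* UMIs in each library its log2 ratio was 4.84. In the 36 Control and 25 SC300 tanycytes with at most 10% mitochondrial UMIs, the log2 ratio of *Cox6a2* was 0.49 (−0.67 to 1.64), whereas that of *Tnnc2*, *Trdn* and *Rrad* stayed above 2.

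**Figure D1:**
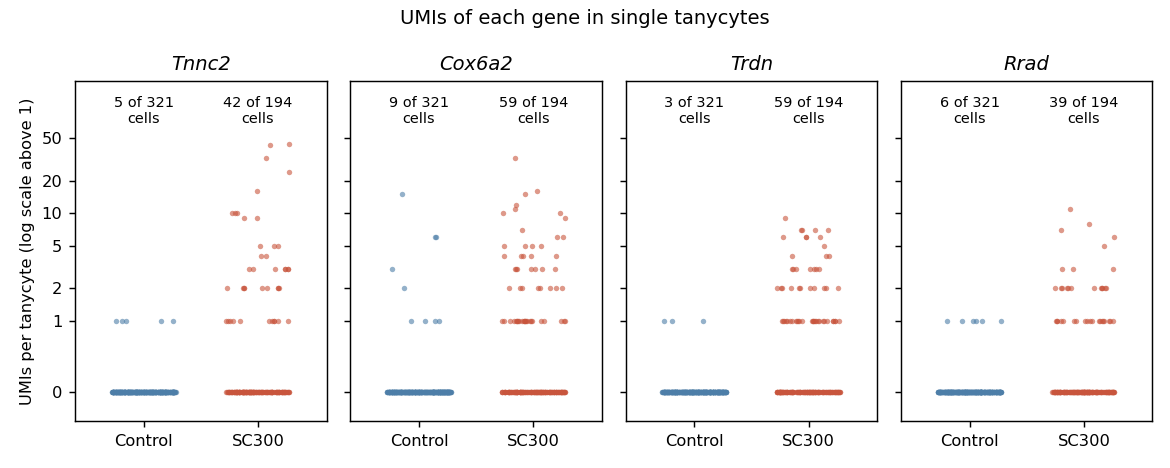
Each point is 1 tanycyte, placed by its UMIs of the gene named above the panel (vertical axis, linear to 1 and logarithmic above), for Control (blue) and SC300 (red), with sideways jitter. Most cells of both libraries lie at 0, Control points above 1 occur only for *Cox6a2*, and SC300 points reach 44 UMIs for *Tnnc2* but 9 for *Trdn*.

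The share of tanycytes with at least 1 UMI was 1.56% (0.508 to 3.60) in Control and 21.6% (16.1 to 28.1) in SC300 for *Tnnc2*, and 2.80% and 30.4% for *Cox6a2*. For *Trdn* it was 0.935% and 30.4% (24.0 to 37.4), and for *Rrad* 1.87% and 20.1%. RNA that floats freely in the suspension sets a floor to such shares, and microglia served as cells that should lack the genes. *Tnnc2* was detected in 0.207% of 484 Control and 0.211% of 475 SC300 microglia, at a median of 7127.5 and 7759 UMIs. *Trdn* was detected in none of them, with upper limits of the interval of 0.759% and 0.774%. *Cox6a2* and *Rrad* were detected in 0.826% and 1.03% of Control and in 0.842% of SC300 microglia each. With each tanycyte thinned to 2000 UMIs (8 Control and 3 SC300 cells were shallower and left out), the shares were 7.33% for *Tnnc2*, 8.38% for *Cox6a2*, 6.81% for *Trdn* and 7.33% for *Rrad* in SC300. In Control they were 0.319%, 0.639%, 0 and 0, where the upper limit of the interval for 0 of 313 cells was 1.17%. Thinned alike, Control and SC300 microglia held *Rrad* in 0.225% and 0.224% and *Cox6a2* in 0.449% and 0, and no *Tnnc2* or *Trdn*. Thinned mature oligodendrocytes held *Rrad* in 9.50% and 11.5%.

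The 4 genes differed in how their transcripts were spread over the SC300 tanycytes. *Tnnc2* was the most concentrated, with 4 cells holding 50% or more of its 281 UMIs and 5 cells holding 56.9%. For *Rrad* 8 cells and for *Cox6a2* 9 cells held 50%. *Trdn* was the most even, with 50% of its UMIs in 13 cells, a maximum of 9 UMIs and 28 of its 59 cells with a single UMI. Their Pearson's r with log10 total UMIs of the cell lay between −0.05 (*Trdn*) and 0.10 (*Cox6a2*) over the 194 cells. Detection rose with depth all the same. Among the 97 shallower and the 97 deeper cells, *Tnnc2* was detected in 14 and 28 and *Cox6a2* in 22 and 37. For *Trdn* the counts were 28 and 31, and for *Rrad* 16 and 23.

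In SC300, 92 tanycytes held none of the 4 transcripts, 45 held 1 of the genes, 30 held 2, 14 held 3 and 13 held all 4. The product of the 4 separate shares, which is the number that unrelated detection would give, was 58.8, 82.4, 42.5, 9.50 and 0.781 cells. The cells with none and the cells with all 4 were thus both more numerous than the product. At least 2 of the genes were held by 57 cells (29.4%), close to the 52.7 from the product, so the excess lay in the cells with 3 or 4 genes and not in those with 2. All 6 pairs were found together in more cells than their product. *Tnnc2* and *Cox6a2* shared 30 cells against 12.8 from the product, which is 71.4% of the *Tnnc2* cells and 50.8% of the *Cox6a2* cells. *Tnnc2* and *Rrad* shared 21 cells against 8.44, and *Cox6a2* and *Trdn* shared 30 against 17.9.

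Depth raises detection of all genes in a cell, so the same count was made at separate depths. Among the 97 shallower SC300 tanycytes 2 cells, and among the 97 deeper ones 11 cells, held all 4 genes, against products of 0.151 and 0.809. At least 2 genes were held by 23 and 34 cells, against 18.3 and 34.9. Depth still varied among the deeper cells, up to 127319 UMIs in a cell with all 4 genes, so that this split does not remove it. After thinning to 2000 UMIs, 4 cells held at least 3 of the genes, 3 of them 3 and 1 of them all 4, against products of 0.292 and 0.00585. *Tnnc2*, *Cox6a2* and *Rrad* still shared 5 or 6 cells in each pair, against 1.03 to 1.17. *Trdn* shared 1 cell with each of the other genes, against 0.953 to 1.09, so the overlap of *Trdn* with the others was not seen at that depth. In Control, 1 of 321 tanycytes held 2 of the genes (*Cox6a2* and *Trdn*) and none held more.

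**Figure D2:**
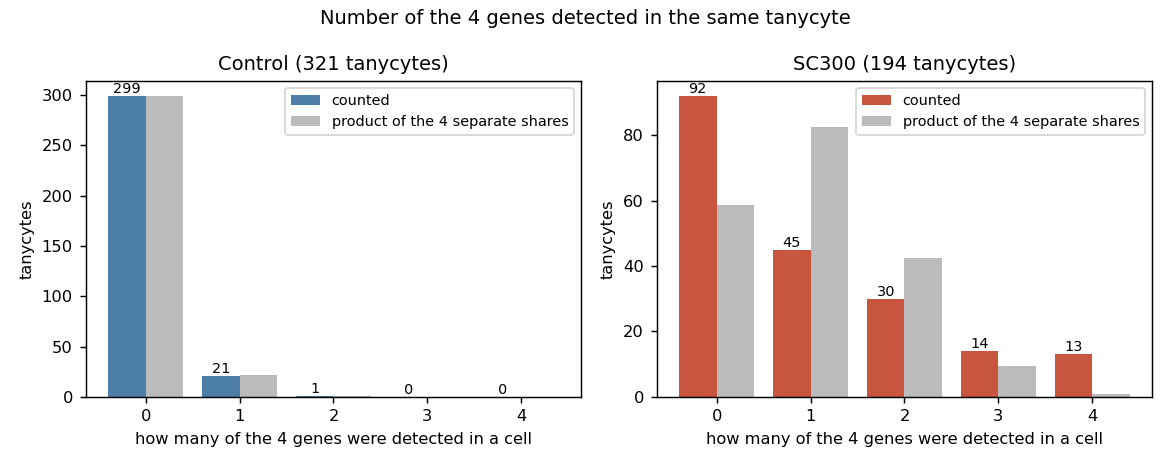
Bars give the number of tanycytes (vertical axis, linear) by how many of the 4 genes were detected in the cell, as counted (coloured) and as the product of the 4 separate shares (grey), for Control (left) and SC300 (right). In SC300 the counted bars exceed the grey ones at 0, 3 and 4 genes, with 13 cells against 0.781 at 4 genes.

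Pearson's r between log-normalized values over the 194 SC300 tanycytes was 0.55 for *Tnnc2* and *Cox6a2*, 0.45 for *Tnnc2* and *Rrad* and 0.33 for *Cox6a2* and *Rrad*. The 3 values with *Trdn* were 0.18, 0.27 and 0.18. These cells share 1 library, and r is given as a description. Of 8700 genes detected in at least 20 of these cells, *Cox6a2*, *Cryab* (r = 0.52), *Dio3* (0.49), *Cdkn1c* and *Dok5* were most like *Tnnc2*. *Cryab* encodes a small heat shock protein that is abundant in muscle and in glia, *Cdkn1c* encodes a cyclin-dependent kinase inhibitor, and *Dio3* encodes the deiodinase that inactivates thyroid hormone. *Tnnc2*, *Cdkn1c*, *Dio3*, *Dok5* and *Ldhb* were most like *Cox6a2*, and *Cryab* (0.52), *Tnnc2*, *Bcam*, *Dok5* and *Dio3* were most like *Rrad*. The genes most like *Trdn* were *Tnfrsf19* (0.42), *Dio3* (0.39), *Fgl2*, *Tac1* (which encodes the precursor of substance P) and *Fkbp3*. *Dio3* was thus among the 5 genes most like each of the 4.

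*Dio3* and *Tac1* were themselves higher in SC300 tanycytes, with 33 and 363 UMIs for *Dio3* (log2 ratio 3.94, 3.43 to 4.50) and 6 and 196 for *Tac1* (5.51, 4.37 to 6.98). *Dio3* was detected in 63.2% of the 57 SC300 tanycytes with at least 2 of the 4 genes and in 6.52% of the 92 with none, at 208 and 7.51 CPM. For *Tac1* the shares were 42.1% and 6.52%, at 83.2 and 19.1 CPM. Other transcripts were lower in the cells with the muscle genes. *Frzb* encodes a secreted inhibitor of Wnt signalling. It stood at 40.4 CPM in the cells with at least 2 of the genes and at 240 CPM in those with none. *Tmem212* stood at 140 and 452 CPM and *Scn7a* at 3.05 and 28.7 CPM. Over all tanycytes *Scn7a* was nonetheless higher in SC300, with 31 and 53 UMIs (log2 ratio 1.26, 0.59 to 1.95). *Vim* (2352 and 3057 CPM) and *Sox2* (1002 and 847 CPM) were present in both sets. The cells had a median of 12860 UMIs with at least 2 of the genes and 11153 with none.

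*Tnnt1*, which encodes the troponin T of slow skeletal muscle, was also much higher in SC300 tanycytes, with 34 UMIs in 27 Control and 544 UMIs in 37 SC300 cells (log2 ratio 4.48, 3.98 to 5.03). Its UMIs were few in the cells with several of the 4 genes. It stood at 224 CPM both in the 92 SC300 tanycytes with none of the 4 genes and in the 45 with 1 of them, and at 22.9 CPM in those with at least 2. Of its 37 cells 16 held at least 1 of the 4 genes, among them the cell with the most *Tnnt1*, 148 UMIs. These levels rested on few cells, since 3 cells held 53.9% of its UMIs, and *Tnnt1* was detected in 22.8% of the cells with none and in 15.8% of those with at least 2. The 9 SC300 tanycytes with at least 5 *Tnnt1* UMIs had 25918 to 105858 UMIs in all. The r of *Tnnt1* with the 4 genes lay between −0.14 and −0.10. In ependymal cells *Tnnt1* had 287 UMIs in 14 of 30 SC300 cells (549 CPM) against 0 in 41 Control cells. Each of the 4 genes had at most 8 UMIs in these SC300 cells. *Tnnt1* was also present in microglia of both libraries at 61.9 and 58.3 CPM. It also had more UMIs in SC300 in mature oligodendrocytes (5 and 83, the latter in 6 cells), glutamatergic neurons (7 and 31) and barcodes without a type (9 and 196). Oligodendrocyte precursors had fewer (6 and 3).

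**Figure D3:**
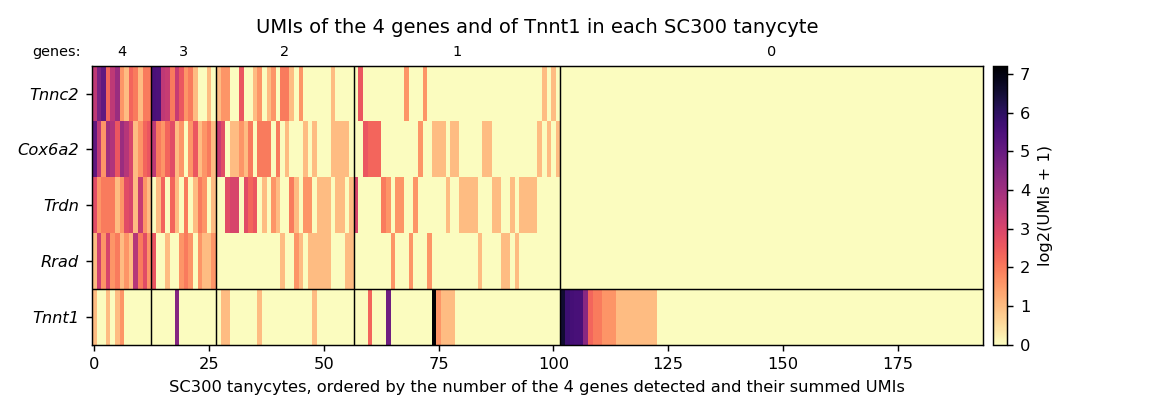
Each column is 1 of the 194 SC300 tanycytes, ordered by how many of the 4 genes were detected (numbers on top) and by their summed UMIs, and each row is a gene, with colour for log2(UMIs + 1). The 13 cells with all 4 genes stand at the left, and the darkest *Cox6a2* cell (33 UMIs) is among them. The darkest *Tnnc2* cell (44 UMIs) held no *Trdn* and stands outside them, as do the darkest *Tnnt1* cells.

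The tanycytes were divided by markers of the median eminence (*Col25a1*, *Scn7a*, *Adm*) and of tanycytes outside it (*Frzb*, *Slc17a8*, *Penk*). The latter rested on *Frzb*, since *Slc17a8* had 0 Control and 1 SC300 UMIs and *Penk* 1 and 3. *Adm* was detected in 4.05% and 4.64% of tanycytes and in 3.90% and 6.19% of the other cells. The split is thus one of markers, and position was not measured. Of the SC300 cells, 135 had none of these markers, 33 had both kinds, 19 had only the latter and 7 only the former. *Trdn* was detected in 39.3% of the 135 cells with neither and in 3.03% of the 33 with both, and *Rrad* in 25.2% and 3.03%. *Tnnc2* was detected in 24.4% (17.5 to 32.6) and 12.1% (3.40 to 28.2) and *Cox6a2* in 34.8% (26.8 to 43.5) and 18.2% (6.98 to 35.5) of them. The intervals overlapped for *Tnnc2* and for *Cox6a2*, but not for *Trdn* or *Rrad*. The cells with both kinds had a median of 14706 UMIs and those with neither 11758. The other 2 sets held too few cells to rank. *Trdn* was detected in 26.3% (9.15 to 51.2) of the 19 cells and in 0 of the 7. In Control, all 36 *Cox6a2* UMIs and all 3 *Trdn* UMIs lay among the 201 cells with neither kind of marker.

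The genes were also followed across the edge of the tanycyte gate, in cells with fewer than 2 *Snap25* UMIs. In SC300, *Trdn* stood at 0 CPM in cells with none of the 5 markers, 0.298 with 1, 1.13 with 2, 13.5 with 3, 56.6 with 4 and 49.9 with 5. *Rrad* did not follow the gate in this way. It stood at 38.3 CPM in cells with none of the markers, 32.5 with 1, 15.1 with 2, 10.6 with 3, 36.8 with 4 and 26.0 with 5. *Tnnc2* had 59 UMIs in 5 cells with exactly 2 markers (22.3 CPM) and 60 UMIs in 8 cells with exactly 3 (57.7 CPM). *Cox6a2* did not change at the edge, with 36.2 CPM at 2 markers and 30.8 at 3. In Control, *Cox6a2* was highest just outside the gate, at 41.9 CPM with 2 markers, and stood at 16.9 with 3, 0 with 4 and 4.53 with 5. With 2 markers in place of 3, the gate took 495 Control and 352 SC300 cells, and the log2 ratio was 1.50 for *Cox6a2* and 3.88 for *Tnnc2*.

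Outside tanycytes the 4 genes had separate patterns. Cells that were not tanycytes took the type whose 5 marker genes they showed most, and UMIs were summed for each type and library.

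*Trdn* was almost confined to SC300 tanycytes, which held 149 of its 165 UMIs in SC300. It had 4 UMIs in Control and 1 in SC300 astrocytes, 2 in SC300 ependymal cells, and 8 in SC300 GABAergic neurons, all of them in 1 cell. It had none in either library in microglia, oligodendrocytes of any stage, endothelial cells or pericytes. Over 28 sums of a type and a library, *Dio3* was the gene most like it (r = 0.91), followed by *Prss56* and *Tnnc2* (0.78 each), *Krt32* and *Scn7a*. These sums share 2 libraries and differ widely in depth. They also include the SC300 tanycytes, on whose values the 4 genes were selected.

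*Tnnc2* was a tanycyte gene in SC300 but an astrocyte gene in Control. Astrocytes held 104 of the 124 Control UMIs (83.9%), at 10.3 CPM (8.43 to 12.5), and tanycytes 4.03%. In SC300, tanycytes held 67.1% and astrocytes 14.8% of 419 UMIs, and the level in astrocytes was 5.52 CPM (4.23 to 7.07). The log2 ratio in astrocytes was −0.90 (−1.38 to −0.44), opposite in sign to that in tanycytes. No other type had more than 4 *Tnnc2* UMIs in a library, except for the barcodes without a type. Its nearest genes over the 28 sums were *Trdn* (r = 0.78), *Fabp4*, *Doc2g*, *Gfap* and *Msx2*. The likeness of *Tnnc2* and *Trdn* is no separate support, because both were selected as high in 1 of these sums.

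*Cox6a2* was present in astrocytes of both libraries at 24.7 CPM (21.7 to 28.0) in Control and 22.4 CPM (19.7 to 25.4) in SC300, a log2 ratio of −0.14 (−0.40 to 0.12). Its level was higher in astrocytes that carried more tanycyte markers, from 9.22 CPM with none to 25.7 with 1 and 69.9 with 2 or more in Control, and from 6.44 to 25.1 and 80.5 in SC300. Astrocytes with 2 or more tanycyte markers thus had *Cox6a2* in both libraries, in 21.7% and 21.1% of 106 and 95 cells, whereas gated tanycytes had it mainly in SC300. *Tnnc2* in the same cells had 21 UMIs in Control and 3 in SC300. *Cox6a2* and *Tnnc2* were found together in 11 Control and 9 SC300 astrocytes, against products of 5.19 and 2.90. In neurons *Cox6a2* was low, at 1.47 to 17.1 CPM. The highest value was that of Control neurons with neither GABAergic nor glutamatergic markers, or with both, where it had 24 UMIs against 12 in SC300 (log2 ratio −1.61, −2.74 to −0.55). Of 8722 genes with at least 20 UMIs in these neurons 2.45% were at least 2-fold lower in SC300. Without the cell with the most UMIs in each library the log2 ratio was 0.25 (−1.48 to 2.18), so that the direction rested on those cells. Over the 28 sums, *AABR07042840.1*, *Hapln1*, *Colec11*, *Sorcs2* and *Cldn9* were most like *Cox6a2* (r from 0.80 to 0.76).

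*Rrad* was the most widely expressed of the 4, and tanycytes held 89 of its 2002 SC300 UMIs. Among types with at least 20 cells in both libraries, pericytes, the contractile cells of capillaries, had the highest level, at 156 CPM (131 to 186) in Control and 148 CPM (126 to 173) in SC300. Next in Control came neurons of neither or both transmitter classes (81.8 CPM), glutamatergic neurons (63.5) and mature oligodendrocytes (49.9), and each interval overlapped with the next. In SC300 the same neurons (67.3) came next, followed by mature oligodendrocytes (61.3), newly formed oligodendrocytes (46.2), glutamatergic neurons (36.7), GABAergic neurons (31.5) and tanycytes (24.7), again with overlap between neighbours. SC300 tanycytes therefore reached a level close to that of GABAergic neurons, whose interval of 27.2 to 36.3 CPM overlapped with theirs. Microglia (3.07 and 1.32 CPM) and astrocytes (1.19 and 2.05 CPM) were at the low end.

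The contrast between the libraries was smaller for *Rrad* in every other type with at least 20 of its UMIs than in tanycytes. Mature oligodendrocytes had 388 and 672 UMIs (log2 ratio 0.30, 0.11 to 0.48), GABAergic neurons 194 and 193 (0.05, −0.25 to 0.34) and pericytes 131 and 157 (−0.08, −0.42 to 0.27). In oligodendrocyte precursors *Rrad* was higher in SC300, with 6 and 19 UMIs (log2 ratio 1.60, 0.22 to 3.21), where 1.02% of 9763 genes were at least 2-fold higher. Newly formed oligodendrocytes had 21 and 53 UMIs (0.95, 0.20 to 1.76). In glutamatergic neurons it was lower in SC300, with 184 and 112 UMIs (−0.79, −1.14 to −0.44). Endothelial cells had 28 and 10 UMIs (−1.08, −2.28 to 0.01), where 2.92% of 8261 genes were at least 2-fold lower, and the interval reached 0. Haemoglobin-rich barcodes, which are no cell type, had 58 and 87 UMIs (0.70, 0.20 to 1.20), where the median of all genes was itself shifted by 0.27. Over the 28 sums *Acsl1* (r = 0.74), *Fundc2*, *App*, *Mpped2* and *Gipc2* were most like *Rrad*.

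Ependymal cells line the ventricle next to tanycytes and were few, 41 in Control and 30 in SC300. All 4 genes were at 0 UMIs in the Control cells, with an upper limit of the interval of 5.54 CPM for each. In SC300 they had 1 UMI of *Tnnc2*, 6 of *Cox6a2*, 2 of *Trdn* and 8 of *Rrad*, each in 1 or 2 cells. The levels were 1.91 CPM (0.0485 to 10.7), 11.5 CPM (4.21 to 25.0), 3.83 CPM (0.464 to 13.8) and 15.3 CPM (6.61 to 30.2). Only the interval of *Rrad* lay above the Control limit, and its UMIs came from 2 cells. Macrophages, fibroblasts and smooth muscle cells had under 20 cells in at least 1 library. The only counts among them were 5 *Rrad* UMIs in the 2 SC300 smooth muscle cells (420 CPM, 136 to 980) and 6 in 1 SC300 fibroblast.

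**Figure D4:**
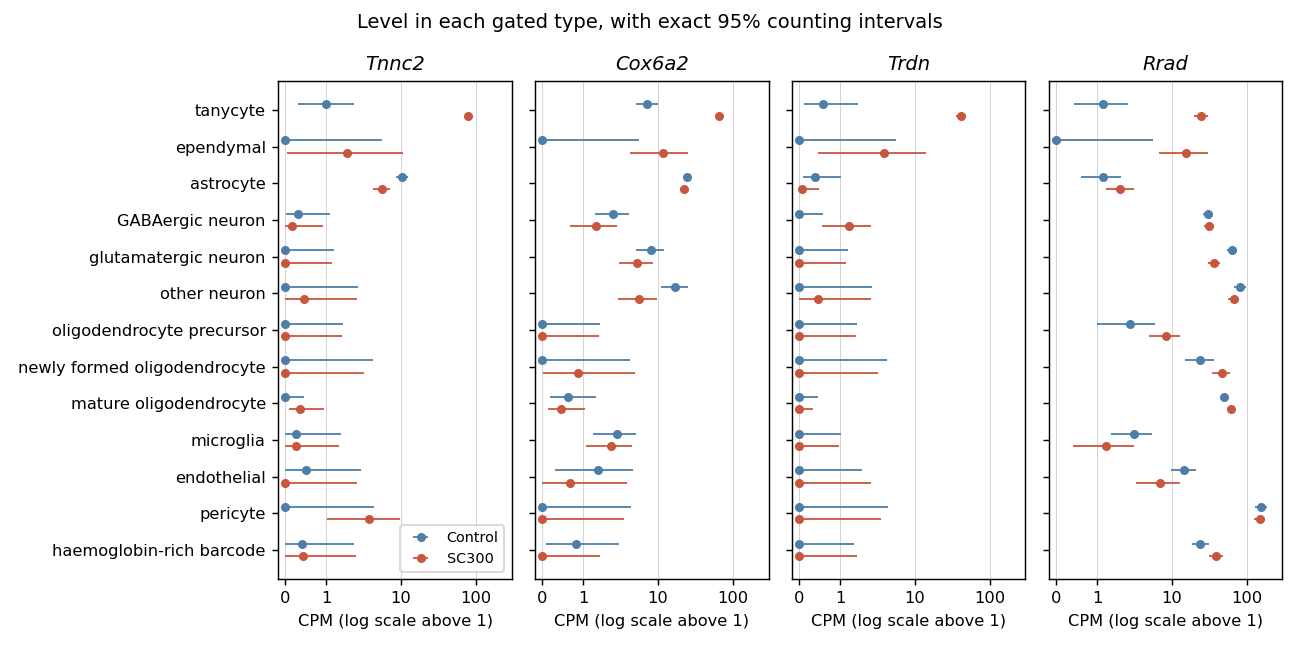
Points give CPM (horizontal axis, linear to 1 and logarithmic above) of each gene in each type with at least 20 cells in both libraries, for Control (blue) and SC300 (red), with exact 95% counting intervals. The libraries stand far apart in tanycytes for all 4 genes, *Trdn* is near 0 elsewhere, and *Rrad* is highest in pericytes, at 156 and 148 CPM.

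Relatives of the 4 genes were read in tanycytes for lists that cover troponins and tropomyosins, calcium stores, cytochrome c oxidase, RGK proteins and calcium channels, and calcium sensors. The lists also hold muscle transcription factors and estrogen-response genes, which are no relatives of the 4. Of 88 listed genes (90 identifiers), 45 identifiers had at least 50 UMIs. Of these 45, 3 (6.67%) were at least 2-fold higher in SC300 and 0 lower, against 1.37% and 1.87% of all genes, and their median log2 ratio was 0.02 against −0.07 over all genes. The 3 were *Tnnt1*, *Casq1* and *Gal*, of which *Gal* came from the estrogen-response list. The remaining identifiers were within 2-fold.

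Among the 5 troponins and tropomyosins with at least 50 UMIs, *Tnnt1* alone was 2-fold apart. *Tnnc1*, the slow and cardiac troponin C, had 14 and 6 UMIs, *Tnnt3* 10 and 9, *Tnni1* none, *Tnni2* 1 and 0, and *Tnni3* 133 and 88. *Tpm1* and *Tpm3*, tropomyosins also used outside muscle, had log2 ratios of −0.51 and 0.02, and *Tpm2*, just under the minimum with 20 and 29 UMIs, had 1.02 (0.15 to 1.92).

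Among the partners of triadin, *Casq1*, the calsequestrin of fast muscle, had 16 and 41 UMIs (log2 ratio 1.84, 0.98 to 2.78). It stood at 19.8 CPM in the SC300 tanycytes with at least 2 of the 4 genes and at 5.46 in those with none. *Casq2*, the cardiac form, had 147 and 83 UMIs (−0.34, −0.75 to 0.06), and *Asph*, whose locus also encodes junctin, a relative of triadin, had 363 and 277 (0.09). *Hrc*, another calcium-binding protein of the reticulum that binds triadin, had 1 UMI in Control and 16 UMIs in 10 SC300 cells (log2 ratio 4.48, 1.80 to 9.87), below the minimum of 50 UMIs. The ryanodine receptors were barely detected, with 1 and 1 UMIs for *Ryr1*, 5 and 1 for *Ryr2* and 13 and 5 for *Ryr3*. *Atp2a2*, the calcium pump of most tissues, differed little (log2 ratio −0.03).

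The relatives of *Cox6a2* were within 2-fold. *Cox6a1* stood at 372 CPM in Control and 431 CPM in SC300 (log2 ratio 0.21, 0.11 to 0.31), and 0 of the 15 subunit genes with at least 50 UMIs were 2-fold apart. In 3′ libraries CPM can be read across genes only roughly, and *Cox6a1* had 1553 UMIs in SC300 tanycytes where *Cox6a2* had 236. The other muscle isoforms, *Cox7a1* and *Cox8b*, had 0 and 1 and 3 and 2 UMIs.

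The RGK relatives of *Rrad* were not higher in SC300. *Gem* had 142 and 54 UMIs (log2 ratio −0.91, −1.39 to −0.45), *Rem1* 25 and 14, and *Rem2* 89 and 56 (−0.18). *Cacnb1* and *Cacnb4*, β subunits of calcium channels, had log2 ratios of −0.03 and −0.18. Another β subunit, *Cacnb3*, had 8 and 17 UMIs (1.57, 0.28 to 2.99), below the minimum of 50. *Cacna1s*, the channel of skeletal muscle, had none. The myogenic regulators *Myod1*, *Myog*, *Myf5* and *Myf6* were at 0 UMIs in both libraries. *Mef2c* had 456 and 637 UMIs (0.97, 0.79 to 1.14), just below 2-fold and just above it when scaled by the median of ratios, and *Mef2a* (0.24) and *Srf* (−0.23) differed less. Of the estrogen-response genes, *Esr1*, the estrogen receptor α, had 8 and 5 UMIs and *Esr2* and *Pgr* had none. *Gal*, which encodes galanin, had 90 UMIs in 35 Control cells and 248 UMIs in 20 SC300 cells (1.95, 1.59 to 2.31).

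**Figure D5:**
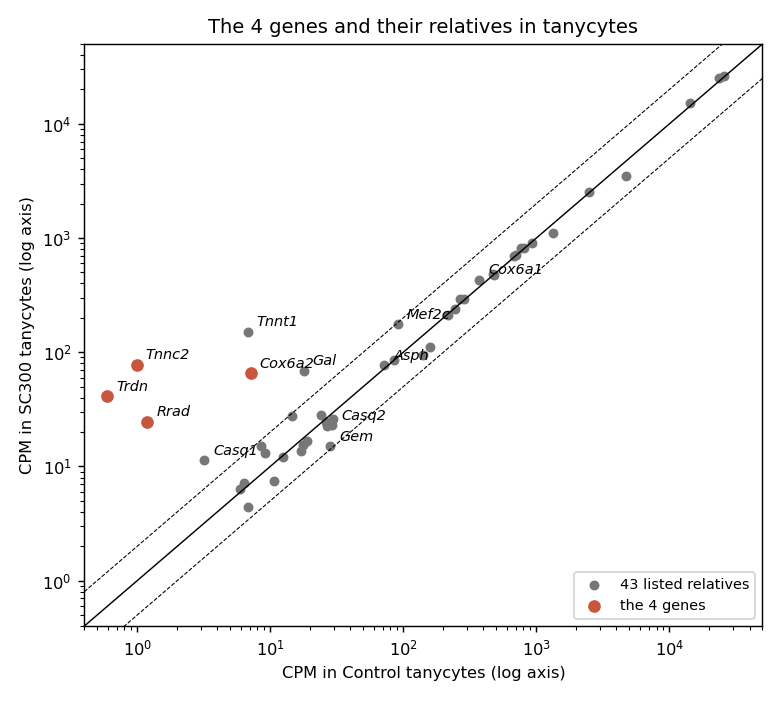
Each grey point is 1 of 43 listed genes with at least 50 UMIs in tanycytes (identifiers of 1 symbol summed). The legend calls them relatives, though muscle transcription factors and estrogen-response genes are among them. Points are placed by CPM in Control (horizontal) and SC300 (vertical, both logarithmic), and red points are the 4 genes. The solid line marks equal levels and the dashed lines 2-fold, and above the upper dashed line lie the 4 genes, *Tnnt1*, *Gal* and *Casq1*.

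Transcripts of other cells were read beside these values. Of 15 marker genes of skeletal muscle fibres, 12 were in the files and their summed level was 31.6 CPM in Control and 31.9 CPM in SC300 tanycytes. *Ckm*, *Myl1*, *Actn3* and *Mb* were at 0 UMIs in both libraries, *Acta1* had 4 and 1, and most of the sum came from *Myh7* (91 and 47) and *Pvalb* (43 and 54). All 6 muscle progenitor markers were at 0 in both. The 6 cardiac markers summed to 33.5 and 31.1 CPM, most of it from *Tnni3*. Haemoglobin genes, by contrast, summed to 378 CPM in Control and 3794 CPM in SC300 tanycytes. Detection went the other way for *LOC103694857* (300 Control and 116 SC300 cells), *Hba-a2* (275 and 92) and *Hbb* (55 and 18). *Hba-a3* was detected in 2 and 4 cells. For the former genes the higher SC300 sum thus came from fewer cells with more UMIs each. In SC300, 1 tanycyte was a haemoglobin-rich barcode. Without it all 4 log2 ratios kept their value within the counting interval. Of 6 pituitary markers, *Pomc*, which ARC neurons also express, accounted for most of a sum of 507 CPM in Control and 152 CPM in SC300. The part of these transcripts in the values of the 4 genes was not tested.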

How the data were processed

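The authors counted UMIs per gene and barcode with Cell Ranger (3.0.1 per the labels) against an Ensembl transcriptome and deposited raw counts of 1 library per group, 52004789 (Control) and 57013099 (SC300) UMIs. Build and strand settings were not given in the sources used here. The methods name a merging step, and whether it changed the counts is not stated.

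Barcodes with at least 200 detected genes were kept (4296 of 4488 and 4379 of 4524), more than the cell totals of the study's clustering. A cell passed a gate with at least 3 of 5 markers. *Foxj1*, *Lhfpl3* and *Pecam1* were not used here, so that their gates had 4. Cells outside the tanycyte gate with at least 10% haemoglobin UMIs were set apart. Other cells took the gate with most markers, and ties had no type. UMIs were summed per type and scaled to CPM. Intervals are Poisson (CPM), Clopper-Pearson (shares) and conditional binomial (log2 ratios). For a log2 ratio, a count of 0 was set to 3. Ratios outside tanycytes needed 20 UMIs. Likeness used log-normalized values (10000 UMIs per cell) or log2(CPM + 1) of sums of at least 20 cells, and the 5 nearest genes are named. Genes were named as the 4 genes, their closest relatives, listed genes at least 2-fold apart with at least 50 UMIs, and nearest genes. *Hrc*, *Mef2c*, *Tpm1*, *Tpm2*, *Cacnb3* and other listed genes below 2-fold were named after their values were seen. The 4 genes, lists and markers were chosen with earlier results of these data known. Intervals of log2 ratios were tested on simulated Poisson counts. These follow the model that the intervals assume and leave out the clumping of UMIs in few cells. Scrublet was run in scanpy 1.11.5, intervals in scipy 1.17.1 (pandas 2.3.3, numpy 2.4.6, Python 3.11.15) and plots in matplotlib 3.10.9.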

Additional observations from a re-analysis of the deposited data

Results flagged for a closer look

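In 3 cases a gene that was higher in SC300 than in Control tanycytes was lower in SC300 in another type, with a counting interval below 0. The higher level in tanycytes is how the genes were selected. The share of all genes with such an interval in the other types is not given here, so the cases are a description. *Tnnc2* had a log2 ratio of −0.90 in astrocytes (104 and 62 UMIs), *Rrad* −0.79 in glutamatergic neurons (184 and 112 UMIs) and *Cox6a2* −1.61 in neurons of neither or both transmitter classes (24 and 12 UMIs). With 1 library per group the difference between the types was not tested. Without the cell with the most UMIs in each library the values of *Tnnc2* and *Rrad* were −0.94 and −0.58, and that of *Cox6a2* was 0.25.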

How the results depend on the processing

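No paired analysis was possible because each group has 1 library. Of 264 alternative values, 219 lay inside the interval of the value reported (or within 1.5 times of a count), 44 moved outside it and 1, whose interval had excluded 0, changed sign. That one was *Cox6a2* in neurons of neither or both transmitter classes, 0.25 without the cell with the most UMIs in each library. Under the same setting 2 values whose interval included 0 also changed sign, in GABAergic neurons, to 0.06 for *Cox6a2* and −0.04 for *Rrad*. Every log2 ratio in tanycytes stayed above 0.

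With at least 2 markers in the gate the log2 ratio was 3.88 for *Tnnc2* and 1.50 for *Cox6a2*. Shares of Control and SC300 tanycytes were then 4.24% and 13.4% (*Tnnc2*) and 6.87% and 22.7% (*Cox6a2*), that of *Trdn* in SC300 17.6%, and that of SC300 cells with at least 2 of the genes 17.0%. The log2 ratio of *Cox6a2* was 4.69 with at least 4 markers, 4.73, 4.41 and 4.66 without *Lhx2*, *Calml4* or *Ppp1r1b* in the gate, and 3.80 and 4.84 without the cell or the 3 cells with the most UMIs.

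With at most 10% mitochondrial UMIs the log2 ratio was 0.49 for *Cox6a2* and 4.34 for *Trdn*. It was 2.32 for *Rrad* with its Control count of 0 set to 3 UMIs. SC300 shares were then 12.0% (*Tnnc2*), 24.0% (*Cox6a2*), 44.0% (*Trdn*) and 28.0% (*Rrad*), and Control shares 5.56% (*Trdn*) and 0 (*Rrad*). In the 57 Control and 26 SC300 tanycytes that passed no other gate, *Tnnc2*, *Cox6a2* and *Trdn* were at 0 in Control. With these counts of 0 set to 3 UMIs, the log2 ratio was 4.44 for *Cox6a2* (lower limit of the interval 4.06) and 3.12 for *Trdn*. Of these SC300 cells, 19.2% held *Trdn*.

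Thinned to 2000 UMIs, the log2 ratio was 4.17 for *Cox6a2*. It was 3.13 for *Trdn* and *Rrad* with their Control counts of 0 set to 3 UMIs. The shares were 0.319% and 7.33% (*Tnnc2*), 0.639% and 8.38% (*Cox6a2*), 0 and 6.81% (*Trdn*) and 0 and 7.33% (*Rrad*), and 4.19% of SC300 cells held at least 2 of the genes. Of the listed genes, 6 of 53 were at least 2-fold higher and 0 lower with a minimum of 20 UMIs, against 2.40% and 3.15% of all genes. With 1 UMI in each library 7 of 65 were higher and 2 lower, against 6.35% and 5.98% of all genes. The cause of these shifts was not tested. Some settings leave fewer cells or UMIs, whereas the gate with 2 markers takes more cells, 495 in Control and 352 in SC300. The alternatives without the haemoglobin-rich barcode and without shared barcodes were chosen after seeing the data and changed no value beyond its interval.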

Other observations

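Barcodes without a type held 63 *Tnnc2* UMIs in SC300 and 10 in Control. A single SC300 barcode with 20047 UMIs in all accounted for 38 of the 63, had 2 of the 5 tanycyte markers and 4 *Rrad* UMIs, and had none of *Cox6a2* or *Trdn*.

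Further transcripts were found in the same SC300 tanycytes as the 4 genes. *RGD1309362* had 0 UMIs in Control and 129 in SC300 tanycytes, and was detected in 61.4% of the SC300 cells with at least 2 of the 4 genes and in 14.1% of those with none. *Doc2g* (18 and 109 UMIs) was detected in 57.9% and 5.43%. *LOC100911991* (15 and 132 UMIs) was less divided, at 42.1% and 31.5%. *Tac1* had 133 UMIs in 10 of 475 SC300 microglia and 8 UMIs in 8 of 484 Control microglia. The shares of cells were alike, at 2.11% (1.01 to 3.84) and 1.65% (0.716 to 3.23), so the higher SC300 sum lay in few cells.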
